A study of Danio rerio with 20 samples.

Results

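The 10 synchronized neurons of the Dc region, the central zone of the zebrafish dorsal pallium, were ranked by their slc17a7a level, and the 5 cells with the most (slc17a7a-high) were set beside the 5 cells with the least (slc17a7a-low). These 10 cells were chosen from 20 single-cell libraries, the other 10 being non-synchronized neurons. All fish were 4 to 5 weeks old and carried Tg(HuC:H2B-GCaMP6f), a calcium indicator held in the nucleus and driven by the HuC (elavl3) promoter, which is active across neurons. All received conspecific alarm substance (CAS), a cue released from injured fish skin. Neurons whose calcium signal joined, or did not join, the oscillation that followed CAS were picked with a glass pipette. The fish behind each cell is not named, so cells may share a fish. Because the sides were chosen on a value measured in the same cells, all that follows is a description, with no test. Levels are CPM, a gene's read count as a share of all counts of its cell, scaled to a common total. They were not divided by gene length, so levels of different genes are not ranked against each other.

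Vesicular glutamate transporters load glutamate into synaptic vesicles, and a neuron that expresses 1 of them is taken to be glutamatergic. In mammals VGLUT1 (SLC17A7) marks most neurons of the cerebral cortex and hippocampus, whereas VGLUT2 (SLC17A6) marks thalamic and many brainstem neurons, and some neurons use both. Zebrafish carry duplicate genes, slc17a7a and slc17a7b for VGLUT1, slc17a6a and slc17a6b for VGLUT2, with slc17a8 coding for VGLUT3. The pallium is the part of the teleost telencephalon compared with mammalian cortex and hippocampus, and its glutamatergic neurons are marked by transcription factors such as eomesa, tbr1b and the neurod family.

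Among the slc17a7a-high cells, slc17a7a stood at 215, 193, 77.3, 51.9 and 44.5 CPM in cells 9, 6, 22, 14-1 and 4-1. Among the slc17a7a-low cells it stood at 21.07, 10.8, 2.51, 2.36 and 0 CPM in cells 16, 21, 4, 5 and 20. Cells are given in these orders throughout. At the border, cell 4-1 was just inside the high side (111 counts, exact Poisson 95% interval 36.6 to 53.6 CPM) and cell 16 just outside it (42 counts, exact Poisson 95% interval 15.2 to 28.5 CPM). Cells 4 and 5 rested on 2 and 3 counts and cell 20 on 0 counts, a depth at which 3 counts would be 1.39 CPM. The step at the border was no wider, as a ratio, than that between cells 6 and 22 or between cells 21 and 4, so the border is a point on a range. The intervals cover counting error only. Of the non-synchronized cells, 3 had slc17a7a counts, at 132 CPM in cell 5, 59.97 CPM in cell 10-1 and 1.33 CPM in cell 13.

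**Figure D1:**
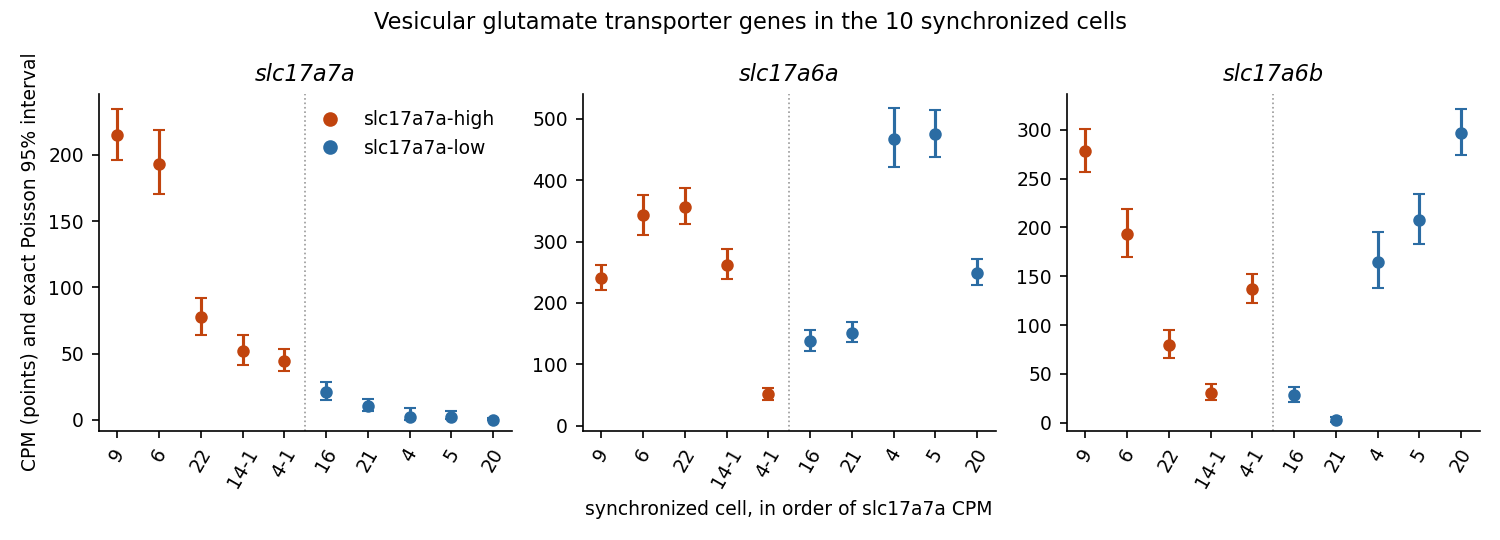
CPM of slc17a7a, slc17a6a and slc17a6b in each synchronized cell, in the order of slc17a7a, with slc17a7a-high cells left of the dotted line and slc17a7a-low cells right of it; bars are exact Poisson 95% intervals on 1 library each. slc17a7a decreases by construction, while slc17a6a is lowest in cell 4-1 of the high side and highest in cells 4 and 5 of the low side.

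Depth did not separate the sides. Total counts were 1299507 to 2493351 in slc17a7a-high cells and 795838 to 2322879 in slc17a7a-low cells, with 7980 to 10150 and 6878 to 10878 genes detected, and cell 4 was the shallowest library. The mitochondrial share of counts was 2.17% to 7.36% on the high side and 2.09% to 14.04% on the low side, where cell 4 again had the extreme value. All 10 cells expressed elavl3, the pan-neuronal RNA-binding protein gene, at 966 to 1926 CPM on the high side and 229 to 1678 CPM on the low side.

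The VGLUT2 genes did not follow slc17a7a. slc17a6a stood at 241, 342, 357, 262 and 50.9 CPM in slc17a7a-high cells, against 138, 152, 467, 476 and 249 CPM in slc17a7a-low cells, and was present in every cell. The difference in mean log2(CPM + 10), high minus low, was -0.28, and it became 0.18 without cell 4-1. This difference stands in parentheses after the values of the genes below, positive where the high side was higher. slc17a6b stood at 278, 193, 79.8, 30.8 and 137 CPM in slc17a7a-high cells, against 28.1, 3.01, 165, 208 and 297 CPM in slc17a7a-low cells, with a difference of 0.49. Both genes overlapped widely between the sides. The slc17a7a-low cells fell at different places in the range, since cells 4, 5 and 20 held much slc17a6a and slc17a6b and cells 16 and 21 held little slc17a6b. The 2 further family members were nearly absent, slc17a7b having counts only in cell 22 (8.80 CPM) and slc17a8 only in cell 16 (1.51 CPM). The 3 main genes summed to 734, 729, 514, 345 and 233 CPM in slc17a7a-high cells and 187, 165, 635, 685 and 547 CPM in slc17a7a-low cells. The lowest sums were in cells 16 and 21 of the low side, and cells 4, 5 and 20, with the least slc17a7a, lay inside the range of the high side. These sums include slc17a7a, the gene that set the sides. Alone, slc17a6a and slc17a6b summed to 520, 536, 437, 293 and 188 CPM in slc17a7a-high cells. In slc17a7a-low cells they summed to 166, 155, 632, 683 and 547 CPM. On this sum cells 4, 5 and 20 lay above every high-side cell.

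Cell 4-1 stood apart from the other synchronized cells in the transmitter genes gad2 and slc32a1. It held 382 CPM of gad2 and 293 CPM of slc32a1, the genes of a GABA-making enzyme and of the vesicular GABA transporter. In the other 9 synchronized cells gad2 reached at most 3.25 CPM and slc32a1 at most 5.57 CPM. gad1b, a further gene of a GABA-making enzyme, did not set this cell apart. It stood at 7.62 CPM in cell 4-1, against 5.29, 5.13 and 4.18 CPM in cells 9, 14-1 and 20. The same cell held 190.1 CPM of dlx1a and 111 CPM of dlx6a, homeobox genes of GABAergic forebrain neurons, and 2297 CPM of the tachykinin precursor gene tac1. dlx5a, of the same family, was found instead in cell 20 of the low side, with 2.41 CPM in cell 4-1 against 109 CPM in cell 20. The library of cell 4-1, the high-side cell nearest the border, thus held transcripts of genes for both transmitters. This library also had the highest sums of the high side over oligodendrocyte genes (767 CPM) and red blood cell genes (1287 CPM). Whether its transcripts came from 1 cell or more was not tested. Cell 5 of the low side carried hemoglobin RNA, with a sum of 9391 CPM over red blood cell genes, against at most 1287 CPM in any high-side cell and 95.5 CPM in the other low-side cells.

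A mean of 10 CPM or more over the 10 cells was reached by 9041 genes, which are called measured here. Their median difference was 0.09, and 54.4% of them were higher on the high side. Of these, 1170 (12.9%) were at least 1 log2 unit higher on the high side and 883 (9.77%) at least 1 log2 unit higher on the low side. Genes whose sides did not overlap were far fewer, 34 (0.376%) with every slc17a7a-high cell above every slc17a7a-low cell, slc17a7a itself included, and 11 (0.122%) the other way round. A gene could pass the expression filter through its higher side alone. Any split of the cells into equal sides separates some of this many genes, and how many was not computed. The counts of 34 and 11 were not shown to exceed what an arbitrary split would give. Not overlapping therefore does not by itself tie a gene to slc17a7a. Without cells 4-1 and 5 the non-overlapping counts were 106 and 119, on 4 cells a side, where separation is easier to meet, and the counts past 1 log2 unit were 1147 and 1377.

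The largest difference among genes whose sides did not overlap was that of nos1, which codes for neuronal nitric oxide synthase, the enzyme that makes nitric oxide from arginine. It stood at 98.7, 34.6, 149.5, 155 and 93.05 CPM in slc17a7a-high cells, against 3.01, 0, 0, 0.786 and 0.465 CPM in slc17a7a-low cells, with means of 106 ± 49.05 and 0.852 ± 1.25 CPM (SD, n = 5 cells each) and a difference of 3.29. All 5 slc17a7a-high cells held nos1 and the slc17a7a-low cells had 8 counts between them. Within the high side, however, nos1 did not track slc17a7a, since cell 6, next to the top in slc17a7a, had the least nos1. Non-synchronized cells spanned both ranges, at 0.318 to 171 CPM with a median of 71.2 CPM, and most of them had no slc17a7a.

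The other genes that were higher in every slc17a7a-high cell had varied roles. nabp1a, for a protein that binds single-stranded DNA in mammals, stood at 203, 265, 305, 163 and 242 CPM in slc17a7a-high cells, against 60.2, 0.861, 1.26, 37.7 and 21.4 CPM in slc17a7a-low cells (3.19). rnf168, for a ubiquitin ligase of the DNA double-strand break response, stood at 48.4, 117, 11.9, 85.5 and 75 CPM in slc17a7a-high cells, against 0.502, 0, 2.51, 0 and 0.465 CPM in slc17a7a-low cells (2.65). In rnf168 the low side was nearly empty. hnrnpa1b, for an RNA-binding protein of splicing, was detected in all 10 cells, with 269 to 689 CPM on the high side and 9.43 to 182 CPM on the low side (2.31). dtwd1, for a tRNA-modifying enzyme in human cells, ranged over 26.9 to 265 CPM on the high side and 0 to 6.03 CPM on the low side (3.10). tgif1, for a homeodomain corepressor of TGF-beta signalling, ranged over 105 to 432 CPM on the high side and 0 to 81.8 CPM on the low side (2.37). rab11fip4b, for a partner of the recycling endosome GTPase Rab11, ranged over 28.3 to 82.3 CPM on the high side and 0 to 6.28 CPM on the low side (2.34). ankrd46a, an ankyrin-repeat gene, also separated, its lowest high-side cell at 36.6 CPM lying close to its highest low-side cell at 32.2 CPM.

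**Figure D2:**
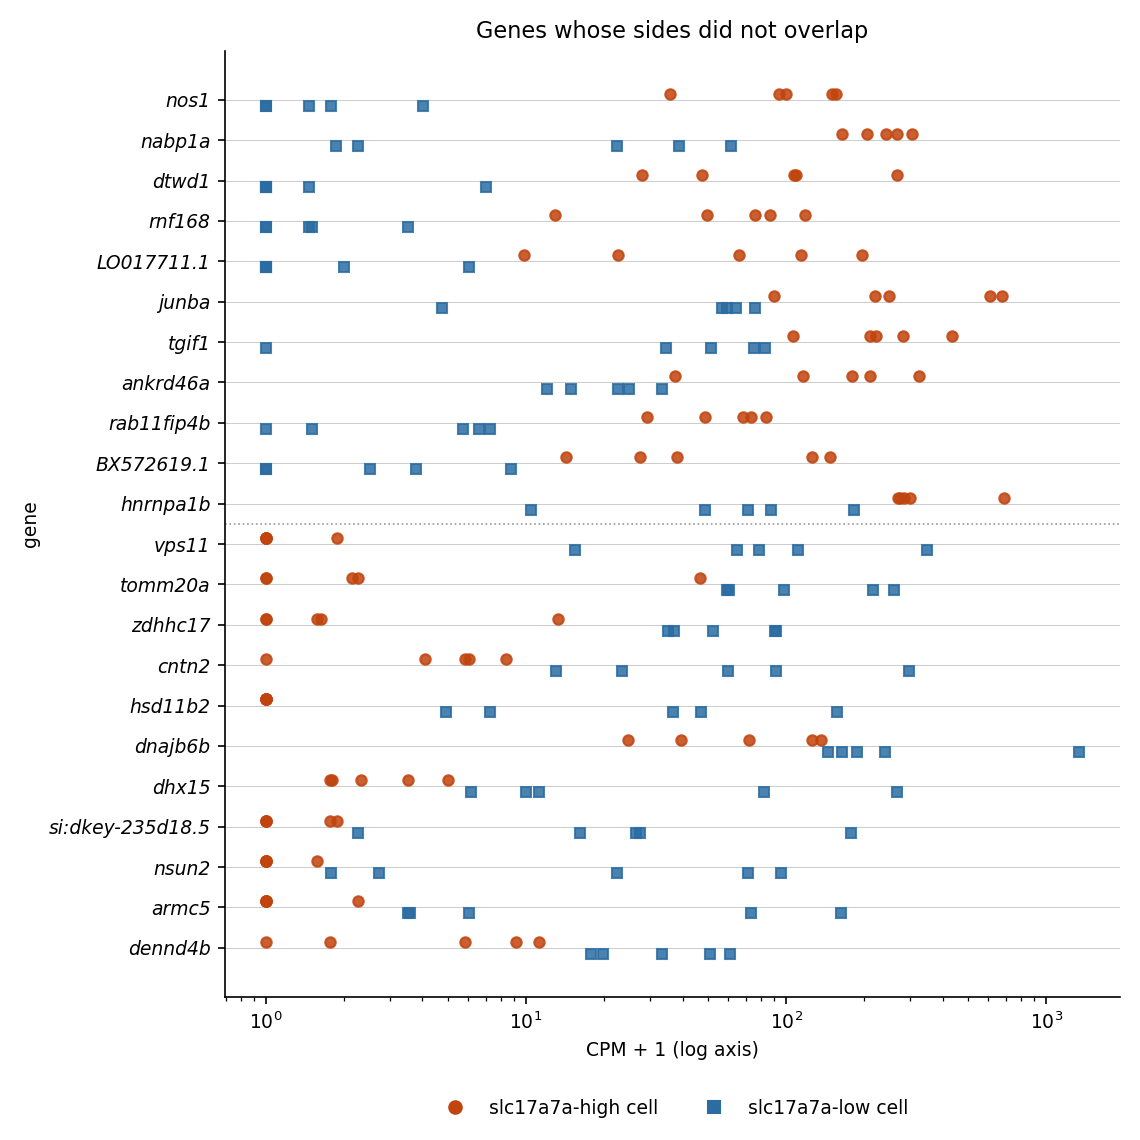
CPM + 1 on a log axis in each synchronized cell for 11 of the 12 genes with the largest difference that were higher in every slc17a7a-high cell (above the dotted line) and the 11 genes higher in every slc17a7a-low cell (below it); circles are slc17a7a-high cells and squares slc17a7a-low cells. On this axis nos1 shows the widest gap, 34.6 CPM in its lowest high-side cell against 3.01 CPM in its highest low-side cell.

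The 11 genes higher in every slc17a7a-low cell were led by vps11, a core subunit of the complexes that tether vesicles to endosomes and lysosomes. vps11 had 2 counts among the slc17a7a-high cells, both in cell 9 (0.881 CPM), against 63.7, 347, 111, 77.8 and 14.4 CPM in slc17a7a-low cells (-3.19). tomm20a, for the receptor that takes up proteins at the outer mitochondrial membrane, stood at 0, 0, 1.26, 1.14 and 45.7 CPM in slc17a7a-high cells, against 97.3, 59.4, 259, 58.2 and 216 CPM in slc17a7a-low cells (-3.09). Its only sizeable high-side value was again that of cell 4-1. hsd11b2, for the enzyme that inactivates cortisol, had 0 counts in all 5 slc17a7a-high cells, where 3 counts would be 1.203 to 2.31 CPM, against 35.6, 156, 6.28, 3.93 and 45.99 CPM in slc17a7a-low cells. Its difference (-1.98) depends on the 10 CPM added before the logarithm. cntn2, for a cell adhesion molecule of growing axons, stood at 4.84, 3.08, 5.03, 7.41 and 0 CPM in slc17a7a-high cells, against 12.04, 58.5, 90.5, 296 and 22.3 CPM in slc17a7a-low cells (-2.31). zdhhc17, for a palmitoyltransferase, ranged over 0 to 12.3 CPM on the high side and 34.01 to 90.5 CPM on the low side (-2.46), with only cell 6 of the high side above 1 CPM. dnajb6b, for a heat shock co-chaperone, was expressed in every cell, at 23.7 to 135 CPM on the high side and 144 to 1337 CPM on the low side (-1.88). The remaining 5 were dhx15 (-1.86) and nsun2 (-1.66), for an RNA helicase and an RNA methyltransferase, dennd4b (-1.57), armc5 (-1.64) and si:dkey-235d18.5 (-1.84). In nsun2, armc5 and si:dkey-235d18.5 at least 1 low-side cell lay below 3 CPM, so the gap rested on few counts.

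Immediate-early genes, which neurons transcribe within minutes of strong activity, were the list that differed most among those with more than 3 measured members. Of 28 measured members, 24 were higher on the high side, where 54.4% of all measured genes were. On that side 14 (50.0%, beside 12.9% of all measured genes) were so by at least 1 log2 unit. None reached this on the low side, beside 9.77% of all measured genes. The median difference was 0.95, against 0.09 over all measured genes. With medians over cells in place of means it was 0.49, against 0. The count past 1 log2 unit was then 12 of 28, beside 17.7% of all measured genes. Without cell 22 the count was 9 of 28, beside 13.9% of all measured genes, and without the border cells 4-1 and 16 it was 9 of 28, beside 17.4% of all measured genes. The members past 1 log2 unit included Jun and Fos subunits of the AP-1 factor and phosphatases of the dusp family, which switch off MAP kinases. The summed level of the list did not separate the sides, at 11538, 3805, 17878, 4809 and 10716 CPM in slc17a7a-high cells, against 4048, 7629, 6954, 4792 and 3610.1 CPM in slc17a7a-low cells. Cells 9, 22 and 4-1 lay above every low-side cell and cells 6 and 14-1 lay within their range. Non-synchronized cells had a median sum of 12229 CPM.

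junba and ier5 were the only members whose sides did not overlap, 2 of 28, beside 0.376% of all measured genes. junba, for an AP-1 subunit, stood at 88.97, 218, 677, 249 and 609 CPM in slc17a7a-high cells, against 58.2, 63.3, 3.77, 55.8 and 74.8 CPM in slc17a7a-low cells (2.53). Its paralog junbb stood at 794, 262, 890.3, 371 and 805 CPM in slc17a7a-high cells, against 502, 254, 25.1, 17.3 and 294 CPM in slc17a7a-low cells (2.12), and overlapped through cells 6 and 14-1. ier5, for an immediate early response protein, stood at 184, 70.03, 172, 38.2 and 158 CPM in slc17a7a-high cells, against 7.53, 35.7, 37.7, 24.4 and 7.43 CPM in slc17a7a-low cells (1.99). junba was highest in cells 22 and 4-1, and junbb in cells 22, 4-1 and 9, the cells with the highest sums over the list. dusp5, for a phosphatase that switches off ERK, stood at 1154, 155, 1726, 1042 and 266 CPM in slc17a7a-high cells, against 516, 709, 269, 42.4 and 25.1 CPM in slc17a7a-low cells (1.79). egr4, for a zinc-finger factor, stood at 1591, 179, 3445, 376 and 687 CPM in slc17a7a-high cells, against 676, 845, 157, 79.4 and 206 CPM in slc17a7a-low cells (1.44), with cells 6, 14-1 and 4-1 inside the range of the low side. atf3, an injury and stress response factor gene, had counts in 3 high-side cells, cells 6, 22 and 4-1, and reached 592 CPM in cell 4-1 (2.21). The others past 1 log2 unit were dusp2 (1.70), jun (1.67), fosl1a (1.38), klf6a (1.26), gadd45ba (1.25), dusp6 (1.15), nr4a3 (1.13) and fosab (1.11). Other widely used activity genes lay within 1 log2 unit. egr1 stood at 1582, 259, 608, 971 and 75 CPM in slc17a7a-high cells, against 215, 795, 725, 675 and 113 CPM in slc17a7a-low cells (0.20). npas4a, a factor gene that answers to calcium influx in neurons, stood at 1213, 232, 2380.1, 271 and 1252 CPM in slc17a7a-high cells, against 591, 1158, 911, 581 and 897 CPM in slc17a7a-low cells (-0.09). egr3 had a difference of -0.25, and fosb, at 0 to 197 CPM on the high side and 2.01 to 509 CPM on the low side, one of -0.89.

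**Figure D3:**
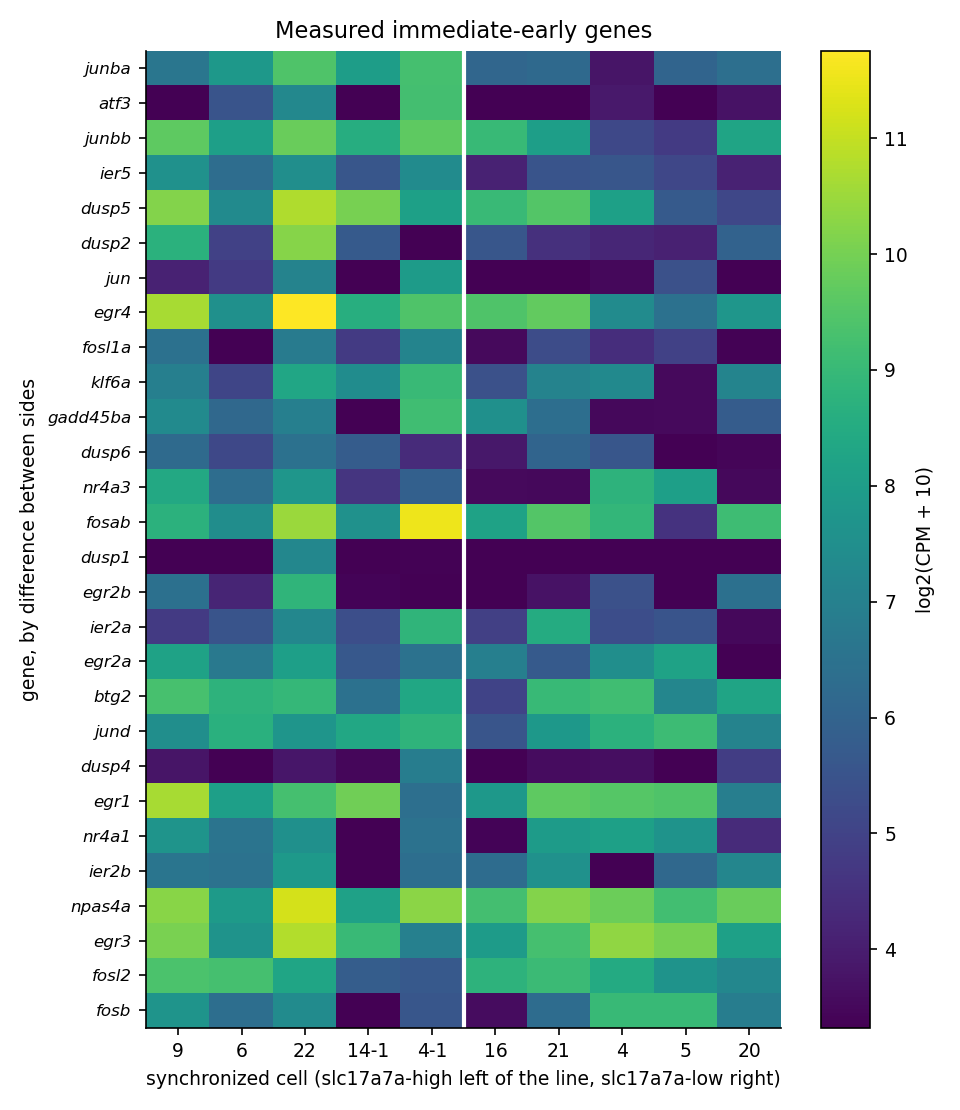
log2(CPM + 10) of the 28 measured immediate-early genes (rows, by difference between sides) in each synchronized cell (columns), with slc17a7a-high cells left of the white line and slc17a7a-low cells right of it. Cells 9, 22 and 4-1 are brightest across the upper rows, and cells 6 and 14-1 are darker there.

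Pallial transcription factor genes were expressed on both sides and did not separate them. Of 13 measured members, 10 were higher on the high side, where 54.4% of all measured genes were. At least 1 log2 unit was reached by 3 on the high side (23.1%, beside 12.9% of all measured genes). Another 3 members were higher on the low side, none by 1 log2 unit (beside 9.77% of all measured genes). No member had sides that did not overlap, beside 0.376% of all measured genes on the high side and 0.122% on the low side. The median difference was 0.20. Without cell 4-1 the count past 1 log2 unit was 5, beside 14.7% of all measured genes. It was 0 with the median over cells in place of the mean, beside 17.7% of all measured genes. eomesa, for the T-box factor also called Tbr2, stood at 1548, 1493, 188, 893 and 132 CPM in slc17a7a-high cells, against 1214, 1129.6, 303, 0.786 and 1524 CPM in slc17a7a-low cells (0.61). It was nearly absent in cell 5 and highest in cells 9, 6, 20, 16 and 21, of which 2 are on the high side and 3 on the low side. tbr1b, for a related T-box factor of glutamatergic pallial neurons, stood at 185, 176, 446, 93.5 and 129 CPM in slc17a7a-high cells, against 1006, 260.5, 0, 260.2 and 581 CPM in slc17a7a-low cells (-0.18). It was found in every high-side cell at a moderate level, and the highest level, in cell 16, and the only absence, in cell 4, were both on the low side. The neurod genes code for basic helix-loop-helix factors of neuronal differentiation. neurod6b stood at 471, 206, 767, 509 and 156 CPM in slc17a7a-high cells, against 713, 48.2, 0, 248 and 512 CPM in slc17a7a-low cells (1.39), with cells 21 and 4 lowest. neurod1 stood at 162, 943, 919, 194 and 266 CPM in slc17a7a-high cells, against 426, 19.4, 139, 549 and 101 CPM in slc17a7a-low cells (1.23). neurod2 (0.13) and neurod6a (-0.56) did not share this direction at the same size. bhlhe23, a further helix-loop-helix gene, stood at 187, 391, 224, 319 and 179 CPM in slc17a7a-high cells, against 327, 114, 235, 15.7 and 120.3 CPM in slc17a7a-low cells (1.01), with cell 5 lowest. Its relative bhlhe22 (0.17), the telencephalic factor gene foxg1a (-0.06) and the repressor gene zbtb18 (0.10) were present in every cell, with ranges that overlapped widely. emx3, a homeobox gene of the pallium, was patchy, at 31.3, 0, 175, 144 and 0 CPM in slc17a7a-high cells, against 74.8, 24.1, 0, 0.786 and 52.5 CPM in slc17a7a-low cells (0.52). tbr1a was found in cells 6 and 21 only, and fezf1 above 2 CPM in cell 4-1 only (110.3 CPM).

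**Figure D4:**
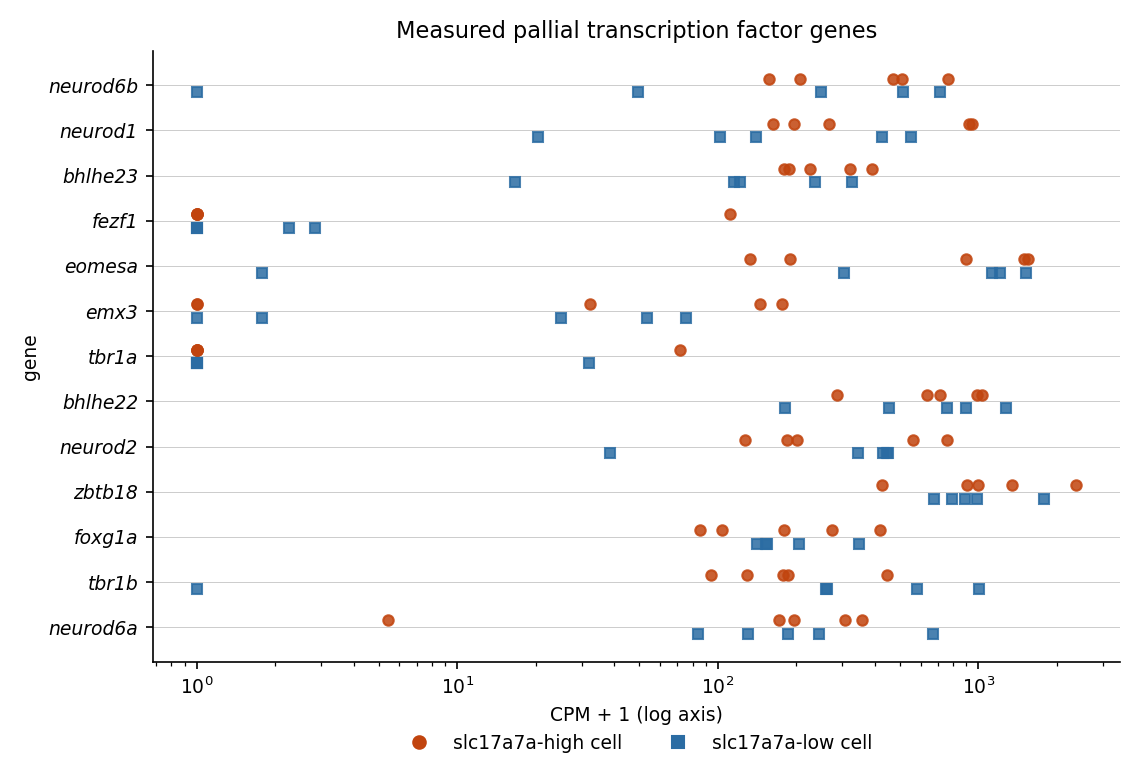
CPM + 1 on a log axis of the 13 measured pallial transcription factor genes in each synchronized cell; circles are slc17a7a-high cells and squares slc17a7a-low cells, and genes run from the largest to the smallest difference. The sides overlap in every gene, as in eomesa, whose 5 highest cells comprise 2 of the high and 3 of the low side.

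Among 56 other measured forebrain transcription factor genes, 11 were at least 1 log2 unit higher on the high side (19.6%, beside 12.9% of all measured genes) and 5 on the low side (8.93%, beside 9.77%), with a median difference of 0.31. rorab, for the orphan nuclear receptor ROR-alpha, stood at 382, 142, 752, 701 and 196 CPM in slc17a7a-high cells, against 155, 132, 76.6, 0.786 and 50.2 CPM in slc17a7a-low cells (2.46). The sides of rorab touched only at cell 6, which lay between cells 16 and 21, while cells 4, 5 and 20 lay far below. nfixa, for a nuclear factor I protein, stood at 251, 120.0, 838, 441 and 379 CPM in slc17a7a-high cells, against 165, 62.4, 80.4, 130.5 and 111 CPM in slc17a7a-low cells (1.61). id2a, for an inhibitor of helix-loop-helix factors, was led by cell 4-1 with 1161 CPM (1.80). myt1a, for a neural zinc-finger factor, stood at 4.84, 129, 222, 63.3 and 65.4 CPM in slc17a7a-high cells, against 202, 202, 146, 729 and 131 CPM in slc17a7a-low cells (-1.62).

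The serotonin receptor gene htr7a, for a receptor that raises cAMP, stood at 26.9, 37.7, 24.5, 113 and 3.61 CPM in slc17a7a-high cells, against 146, 115, 2.51, 0 and 0.929 CPM in slc17a7a-low cells (0.39). It was found in all slc17a7a-high cells, although cell 4-1 had only 3.61 CPM. The slc17a7a-low cells fell apart into cells 16 and 21, which held as much htr7a as the top high-side cell, and cells 4, 5 and 20, which held next to none. Cells 16 and 21 are also the low-side cells with the most slc17a7a and the least slc17a6a and slc17a6b. The paralog htr7c stood at 104 CPM in cell 4 and at most 0.929 CPM in the other synchronized cells (-0.71). htr1d, for a receptor that lowers cAMP, was led by cell 5 of the low side with 313 CPM (-1.24), and htr1aa, of the same class, was found at over 50 CPM in cells 22 and 14-1 only (0.80). In cAMP signalling, 26 genes were measured. Of these, 11 were higher on the high side, where 54.4% of all measured genes were, and 15 on the low side. At least 1 log2 unit was reached by 4 on the high side (15.4%, beside 12.9% of all measured genes) and 2 on the low side (7.69%, beside 9.77%). creb1a, for the cAMP response element binding protein, stood at 166, 188, 26.4, 172 and 225 CPM in slc17a7a-high cells, against 65.7, 171, 32.7, 0.786 and 82.7 CPM in slc17a7a-low cells (1.31). prkar1ab, for a regulatory subunit of protein kinase A, had a difference of 1.54, and adcy1b, for an adenylyl cyclase activated by calcium, one of -1.41.

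Channel genes differed in direction. kcnn3, for the SK3 calcium-activated potassium channel, stood at 119, 7.70, 251, 328 and 159.6 CPM in slc17a7a-high cells, against 282, 187, 157, 413 and 205 CPM in slc17a7a-low cells (-0.93). Every cell held kcnn3, and the difference without cell 6, at 7.70 CPM, was -0.22. cacna1ha, for a T-type calcium channel of low threshold, stood at 17.2, 67.7, 30.8, 144 and 0.401 CPM in slc17a7a-high cells, against 80.3, 102, 295, 193 and 185 CPM in slc17a7a-low cells (-1.96). The overlap of cacna1ha rested on cell 14-1 alone, since the other high-side cells were below every low-side cell. cacna1c, for an L-type channel, stood at 7.49, 182, 62.8, 28.5 and 56.1 CPM in slc17a7a-high cells, against 121, 34.01, 358, 239 and 124 CPM in slc17a7a-low cells (-1.37), and the subunit gene cacnb2a went the other way, at 115, 56.9, 20.7, 295 and 87.4 CPM in slc17a7a-high cells, against 34.1, 46.1, 3.77, 0 and 17.7 CPM in slc17a7a-low cells (1.93). Over the 25 measured voltage-gated calcium channel genes, 3 were at least 1 log2 unit higher on the high side (12%, beside 12.9% of all measured genes) and 4 on the low side (16%, beside 9.77%). Among 10 sodium channel genes, 3 were at least 1 log2 unit higher on the high side (30%, beside 12.9% of all measured genes) and none on the low side (beside 9.77%), led by the subunit gene scn2b at 19.96 to 422 CPM on the high side and 3.144 to 191 CPM on the low side (1.70). scn5lab and scn4ba, the other 2, rested on 1 or 2 high-side cells. Among 24 potassium channel genes, 2 were at least 1 log2 unit higher on the high side (8.33%, beside 12.9% of all measured genes) and 1 on the low side (4.17%, beside 9.77%).

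Genes of glutamate receptors differed by subunit. gria4a, for the AMPA receptor subunit GluA4, stood at 269.6, 267, 101, 34.2 and 515 CPM in slc17a7a-high cells, against 81.8, 97.7, 0, 0.786 and 81.3 CPM in slc17a7a-low cells (2.201). gria3a, for the subunit GluA3, stood at 0.44, 0, 6.91, 1.14 and 0.802 CPM in slc17a7a-high cells, against 49.2, 141, 173, 0 and 40.4 CPM in slc17a7a-low cells (-2.38). These genes lay in opposite directions, and each overlapped only in part: gria4a through cell 14-1, gria3a through cell 5, which had none. By mean log2(CPM + 10), all 7 measured NMDA receptor genes were higher on the high side (54.4% of all measured genes were), none by 1 log2 unit (beside 12.9%). Differences ran from 0.21 for grin1a, the obligatory subunit, to 0.84 for grin3bb, with a median of 0.63. In mean CPM, grin2da was lower on the high side, at 55.2 against 70.7 CPM. The summed level of the list overlapped, at 1674 to 3074 CPM on the high side and 1338 to 3899 CPM on the low side. grin2bb, for the subunit GluN2B, stood at 469, 679, 380.1, 352 and 332 CPM in slc17a7a-high cells, against 88.8, 212, 383, 452 and 439 CPM in slc17a7a-low cells (0.63), and 3 low-side cells lay inside the range of the high side. grm5b, for the metabotropic receptor mGluR5, stood at 142, 286, 101, 217 and 60.6 CPM in slc17a7a-high cells, against 46.7, 18.5, 80.4, 166 and 33.4 CPM in slc17a7a-low cells (1.23), while its paralog grm5a had a difference of 0.37. Of 12 measured GABA receptor genes, 2 were at least 1 log2 unit higher on each side (16.7%, beside 12.9% of all measured genes on the high side and 9.77% on the low side). gabrd, for the delta subunit of receptors outside synapses, stood at 0, 0, 47.1, 17.1 and 0 CPM in slc17a7a-high cells, against 137, 4.30, 209.8, 32.2 and 45.1 CPM in slc17a7a-low cells (-1.89), and was found in every low-side cell and in 2 high-side cells.

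Synaptic lists were near the level of all genes. Of 47 measured genes of vesicle release, 27 were higher on the high side, where 54.4% of all measured genes were. At least 1 log2 unit was reached by 5 on the high side (10.6%, beside 12.9% of all measured genes) and 3 on the low side (6.38%, beside 9.77%), with a median of 0.07. unc13ba, for a vesicle priming factor, stood at 103, 131, 0.628, 87.8 and 118 CPM in slc17a7a-high cells, against 4.52, 1.29, 6.28, 0 and 51.1 CPM in slc17a7a-low cells (2.07). vamp1, for a vesicle SNARE, was found in quantity in cells 9, 14-1 and 4-1 of the high side and in cell 16 of the low side (2.15), and the calcium sensor gene syt7b had a difference of -1.65. Of 50 measured postsynaptic and plasticity genes, 6 were at least 1 log2 unit higher on the high side (12%, beside 12.9% of all measured genes) and 2 on the low side (4%, beside 9.77%), with a median of 0.08. camk2g1, for a calcium/calmodulin kinase II subunit, had a difference of 1.67, although its highest value, 235 CPM, was in cell 4 of the low side. The scaffold gene shank3b had a difference of -1.23, with cell 4-1 lowest at 1.60 CPM. Its other high-side cells held 84.8 to 302 CPM, against 208 to 340 CPM on the low side. Calcium-binding protein genes split by member, with necab1 at 19.4, 36.9, 295, 80.98 and 0 CPM in slc17a7a-high cells, against 0, 38.7, 0, 0 and 0 CPM in slc17a7a-low cells (1.92). necab2, of the same family, stood at 0, 5.39, 0, 1.14 and 251 CPM in slc17a7a-high cells, against 304, 52.95, 1.26, 134 and 70.6 CPM in slc17a7a-low cells (-1.84), with cell 4-1 the only high-side cell above 6 CPM.

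Ranked over all 10 cells rather than split in sides, the genes with counts in at least 7 cells whose levels were most like slc17a7a were pfkfb4b, plekha3, adnp2a, palm1b, CR392045.1 and mfap1. Likeness was Spearman's rho of CPM over the 10 cells, which share the depth of each library between genes, and it reached 0.9 in 5 measured genes, slc17a7a included, and -0.9 in 0. pfkfb4b, for an enzyme that sets the rate of glycolysis, was highest with rho of 0.96, at 238, 158, 174, 92.95 and 93.4 CPM in slc17a7a-high cells, against 92.8, 68.02, 47.7, 52.7 and 26.9 CPM in slc17a7a-low cells. adnp2a, a homeobox gene, stood at 153, 49.2, 55.9, 56.5 and 32.5 CPM in slc17a7a-high cells, against 9.53, 15.1, 2.51, 0.786 and 1.86 CPM in slc17a7a-low cells (rho 0.93). At the other end, the genes with counts in at least 7 of the 10 cells included tomm20a (rho -0.88), dhx15 (rho -0.85) and morc2 (rho -0.83), while armc5, with counts in 6 cells, had a rho of -0.89. rho was 0.75 for nos1, 0.81 for rorab, -0.76 for cacna1ha, -0.16 for slc17a6a and -0.10 for slc17a6b.

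**Figure D5:**
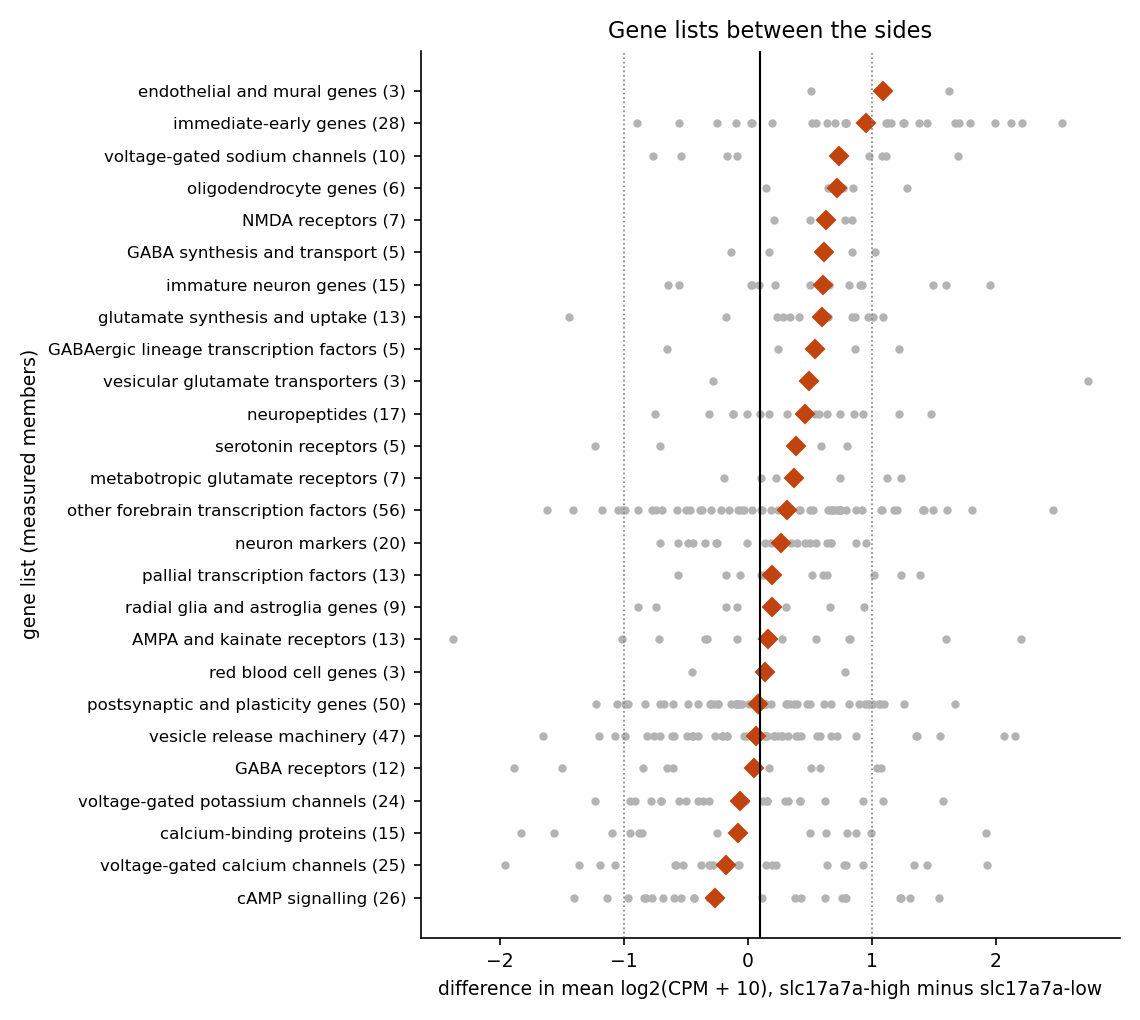
Difference in mean log2(CPM + 10), slc17a7a-high minus slc17a7a-low, of every measured member (grey points) of gene lists with at least 3 measured members, and each list's median (diamonds). The solid line is the median of all measured genes (0.09) and dotted lines mark 1 log2 unit; immediate-early genes have a median of 0.95 and pallial transcription factors one of 0.20.

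Genes of other cell types were not confined to a side, and their part in the differences above was not tested. Summed oligodendrocyte genes came to 262, 73.1, 246, 197 and 767 CPM in slc17a7a-high cells and 57.7, 77.1, 129, 754 and 19.97 CPM in slc17a7a-low cells. By mean log2(CPM + 10), all 6 measured members were higher on the high side (54.4% of all measured genes were), 1 by at least 1 log2 unit (16.7%, beside 12.9%). That member was mag (1.28). Its mean CPM was lower on the high side, at 94.2 against 167 CPM, with its highest value, 742 CPM, in cell 5 of the low side. Summed endothelial and mural genes came to 256, 13.9, 142, 0.57 and 163 CPM in slc17a7a-high cells and 5.52, 54.2, 13.8, 5.50 and 74.3 CPM in slc17a7a-low cells, with all 3 measured members higher on the high side (54.4% of all measured genes were), 2 by at least 1 log2 unit (66.7%, beside 12.9%). Both sums overlapped between the sides. Summed microglia and leukocyte genes came to at most 381 CPM on the high side, in cell 14-1, and 97.5 CPM on the low side. Of 15 measured genes of immature neurons, 13 were higher on the high side (54.4% of all measured genes were), 3 by at least 1 log2 unit (20%, beside 12.9%). The summed level of this list also overlapped, at 3366 to 11884 CPM on the high side, highest in cell 4-1, and 3236 to 8468 CPM on the low side. The largest difference was that of stmn1b, for a microtubule-destabilizing protein, at 552, 1329.7, 1282, 817 and 2546 CPM in slc17a7a-high cells, against 352, 70.6, 279, 318 and 842 CPM in slc17a7a-low cells (1.95). Of 20 measured pan-neuronal genes, 12 were higher on the high side, where 54.4% of all measured genes were. None was past 1 log2 unit on the high side (beside 12.9% of all measured genes) or on the low side (beside 9.77%).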

How the data were processed

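The authors deposited raw read counts per gene for 20 single-cell libraries (75 bp paired-end reads, stranded mRNA kit). The submitters' processing notes name danRer11 and edgeR 3.14.0, the sources used here naming no aligner or counter. Counts of near-identical paralogs may therefore be shared. The table held 18820 genes, 58 without a name; gene names were taken from it. Total counts were 795838 to 2493351 in the 10 synchronized cells. Counts without molecular identifiers are not independent molecules, so the exact Poisson intervals (95%) and the floor of 3 counts cover counting error only.

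CPM used library totals. The 5 cells with the most and the 5 with the least slc17a7a formed the sides. A gene's difference was the mean log2(CPM + 10) of the high side minus that of the low side, for 9041 genes with a mean of at least 10 CPM. No test was run, as the sides were selected on a value of the same cells and no fish is named. A fold on this scale understates low genes. Named genes were the transporters, measured pallial factors, htr7a, kcnn3, gad1b, gad2 and slc32a1, up to 4 members a list by size of difference, 12 non-overlapping genes a direction with a direction stable to leaving out each cell, and 6 a direction by rho; list members beyond these were named after their values were seen, and the text gives only some, a few not being reported here. 1 of the 6 with the lowest rho has a date in place of a symbol in the table and is not given. The members and the 29 gene lists (805 genes, 142 not found by symbol) were chosen with earlier results of these data known. Alternatives were other scalings, filters, an added 1 CPM, medians, thinning, narrower sides and each cell left out. The calculation was run on simulated data with known changes, which checks the code and says nothing about these cells. Software was R 4.3.3 with DESeq2 1.42.0 and edgeR 4.0.16, for scaling only, then Python 3.11.15, with matplotlib 3.10.9 for figures, scipy 1.17.1, pandas 2.3.3 and numpy 2.4.6.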

Additional observations from a re-analysis of the deposited data

Results flagged for a closer look

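In 18 quantities, each looked at within both sides of 5 cells, 7 of the 36 groups of cells had a cell far from the rest of its side. These were 5 different cells in all. A cell was called far where its gap to the nearest cell exceeded 0.71 of the range of its side. That cut-off is Dixon's critical value for 5 values, used here only to flag cells and not as a test. The quantities share the same cells, so this count was not set against chance. On the high side, cell 4-1 had 683 CPM of gad1b, gad2 and slc32a1 together, only 7.62 CPM of it from gad1b, the next cell having 6.27 CPM. On the same side it had 767 CPM over oligodendrocyte genes, the next cell having 262 CPM. On the low side, cell 5 had 9391 CPM over red blood cell genes and 754 CPM over oligodendrocyte genes, the next cells having 95.5 and 129 CPM. On the low side, cell 20 had 13.01 CPM of gad1b, gad2 and slc32a1 together, the next cell having 2.51 CPM. nos1 in cell 16, at 3.01 CPM, was far above the other low-side cells, and still below every high-side cell. junba in cell 4, at 3.77 CPM or 3 counts in the shallowest library, was far below the other low-side cells.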

How the results depend on the processing

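TMM, poscounts, thinned counts and totals without mitochondrial and red blood cell genes gave the same 5 cells on each side. With TMM, genes past 1 log2 unit were 1032 (11.4%) on the high side and 1002 (11.1%) on the low side. The median over all measured genes was then 0.03. Past 1 log2 unit on the high side were 2 of 13 pallial factors and 14 of 28 immediate-early genes with TMM and with poscounts. The same held with totals without mitochondrial and red blood cell genes. Beside them stood 11.4%, 12.3% and 12.8% of all measured genes, in that order. Of the 88 named genes past 1 log2 unit, 79 kept their direction under all 23 alternatives, and of the 60 within it, 15 did. Many named genes were chosen for a large difference. The non-overlapping ones were also chosen for a direction stable to leaving out each cell, which is among the alternatives. These counts therefore do not measure how robust a gene is. With 1 CPM added in place of 10, the genes past 1 log2 unit were 2254 higher on the high side and 1953 on the low side. With medians over cells, 1421 genes were past 1 log2 unit on the low side. On the high side 0 of 13 pallial factors and 12 of 28 immediate-early genes were past it, beside 17.7% of all measured genes. The immediate-early median was then 0.49. Top 3 against bottom 3 cells gave 2042 and 1468 genes past 1 log2 unit and 409 and 252 that did not overlap. In that setting 7 of 13 pallial factors were past 1 log2 unit on the high side, beside 22.6% of all measured genes. The pallial median was 1.00, against 0.13 over all measured genes. Without the border cells (ranks 5 and 6) 125 and 55 genes did not overlap. Past 1 log2 unit on the high side were 5 of 13 pallial factors and 9 of 28 immediate-early genes, beside 17.4% of all measured genes. Without cells 4-1 and 5, 106 and 119 genes did not overlap, and 1377 were past 1 log2 unit on the low side. On the high side 2 of 13 pallial factors and 12 of 28 immediate-early genes were so, beside 12.7% of all measured genes.

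Leaving out 1 cell at a time gave 49 to 71 and 23 to 58 genes that did not overlap, where 4 cells separate from 5 more readily by construction, and 1068 to 1457 and 947 to 1242 genes past 1 log2 unit. The immediate-early median then ranged from 0.73 to 1.21 with 9 to 18 of 28 members past 1 log2 unit on the high side. The pallial median ranged from 0.09 to 0.58 with 2 to 5 of 13 members. Over all measured genes the median ranged from 0 to 0.16, with 11.8% to 16.1% past 1 log2 unit on the high side. The difference of slc17a6a ranged from -0.50 to 0.18 and that of slc17a6b from -0.21 to 0.93. Some values past 1 log2 unit changed sign. gad2 went to -0.047 without the border cells, -0.11 with top 3 against bottom 3 and -0.047 without cells 4-1 and 5, and ranged from -0.027 to 1.297 with 1 cell left out. tac1 went to -0.12, -0.15 and -0.12 in the same order, and ranged from -0.092 to 1.87. With top 3 against bottom 3, slc1a4 went to -0.023, id2a to -0.042, gabra5 to -0.052 and mag to -0.034. The endothelial and mural median went to -0.012 with no filter. The cause was not tested. With 5 cells a side and no fish named, spread between cells and between fish cannot be told apart.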
